A study of Homo sapiens with 6 samples.

Results

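The 10 genes described here carry the urea cycle and the handling of ammonia around it, CPS1, NAGS, OTC, ASS1, ASL, ARG1, ARG2, SLC25A13, SLC25A15 and GLS2. They were chosen by name, as the rows of the count table with these gene symbols, and all 10 were found among the 59608 genes listed. RNA was sequenced from HepG2, an established line of human liver tumour cells, in 6 libraries. In both groups endogenous VEZF1 had been silenced with an sgRNA delivered by lentivirus. The VEZF1-WT group (3 libraries) then received wild-type VEZF1 back. The VEZF1-2A group (3 libraries) received a VEZF1 with a pair of O-GlcNAc serines replaced by alanine. The paper reports that this markedly lowered that sugar on VEZF1. It also lists further candidate sites and a shorter half-life of the mutant protein. The comparison thus asks what loss of the sugar at these serines, with any change in the amount of VEZF1 protein, does to transcription. No library of unmodified HepG2, or of cells without any VEZF1, was analysed here, and whether the cells were 1 clone, or the replicates separate cultures, is not given in the sources used here. The p-values therefore measure the spread between these libraries, which may be technical.

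The urea cycle turns ammonia, bicarbonate and the nitrogen of aspartate into urea, and the full cycle is a property of hepatocytes. Its first steps lie in the mitochondrion, where CPS1 builds carbamoyl phosphate, NAGS makes the N-acetylglutamate that CPS1 needs, and OTC joins carbamoyl phosphate to ornithine. The later steps lie in the cytosol, where ASS1 and ASL build and split argininosuccinate and ARG1 cuts arginine into urea and ornithine. Carriers of the inner mitochondrial membrane link the mitochondrial and the cytosolic steps, and GLS2 releases ammonia from glutamine. Liver cancer lines such as HepG2 are known to make urea poorly and to hold little OTC and ARG1.

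Library totals ranged from 28756765 to 57199396 counts, and mitochondrial genes took 7.94% to 8.55% of them. Low counts were mostly even (81.0% to 83.0% of counts from 1 to 10), as they would be if both reads of a pair were counted. Of counts from 11 to 100, 65.7% to 67.5% were even, so some reads would then have been counted singly. The 9 hepatocyte markers were all present, with ALB at 2813 to 3672 CPM (counts scaled by the effective library size) and HNF4A at 128 to 157, and their summed level was 15410 to 19630 CPM in VEZF1-WT and 14760 to 19090 in VEZF1-2A. Among the markers of other cells, LUM was at 0 in every library and PTPRC, COL1A2, DCN and CDH5 stayed under 0.25 CPM. COL1A1 (0.674 to 1.75 CPM), PECAM1 (1.60 to 3.71), VWF (0.225 to 0.800), CD14 (0.0302 to 0.350) and KRT7 (0.181 to 1.27) were low, while KRT19, SOX9 and EPCAM of the cholangiocyte list and CD68 and LYZ of the macrophage list were expressed at 112 CPM or more. VEZF1 itself did not separate the groups, at 48.3 ± 9.95 CPM (SD, n = 3) in VEZF1-WT and 44.5 ± 5.06 in VEZF1-2A. Its count may hold both endogenous and re-expressed RNA, which counts per gene cannot tell apart, so it does not check the labels.

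Across the 10 genes, level differed widely, and no difference between the forms of VEZF1 passed the test after adjustment. SLC25A13 was the highest and OTC the lowest, and 9 of the 10 reached 1 CPM in every library, all but OTC. Between VEZF1-WT and VEZF1-2A, 0 of the 10 passed 0.05 after adjustment of the p-values over 19111 genes (Benjamini-Hochberg, edgeR's quasi-likelihood test), and neither did any other gene (0%). At an unadjusted p-value under 0.05 there was 1 of 10, ARG1, against 2.13% of all genes tested. The libraries of the groups did not overlap for 1 of 10, CPS1, against 7.36% of all genes. The fitted log2 fold changes (VEZF1-WT over VEZF1-2A) were positive for 3 members and negative for 7, with a median of −0.02, beside 0.00 over all genes tested. In bulk RNA, fewer expressing cells and less RNA per cell cannot be told apart.

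**Figure D1:**
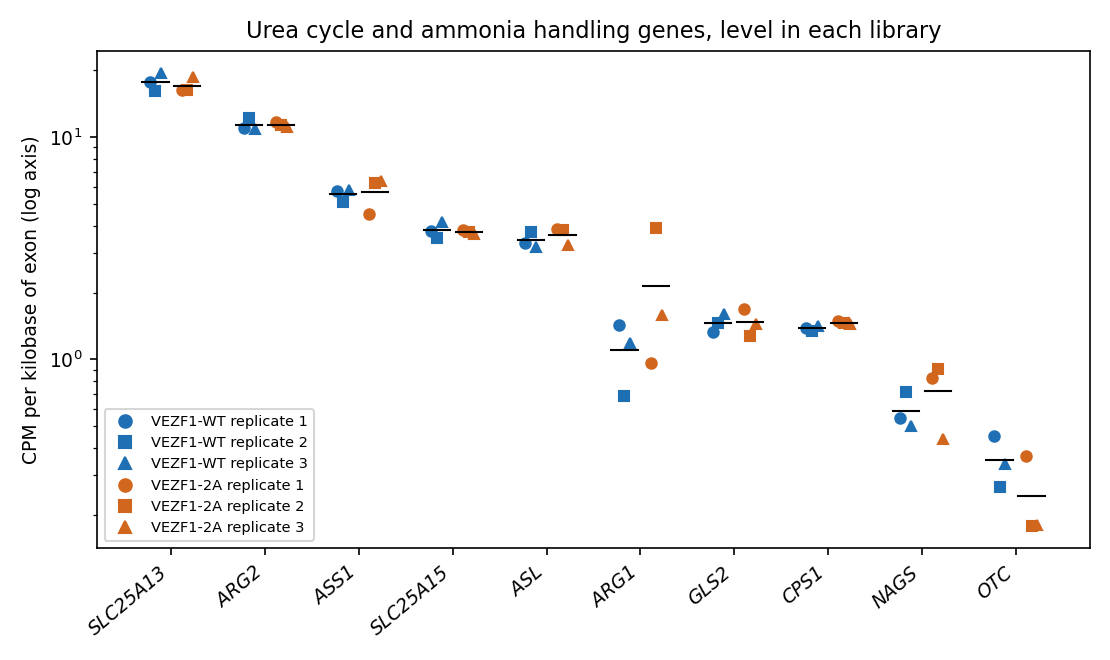
Level of each gene in each library, as CPM per kilobase of exon on a log axis; blue points are VEZF1-WT, orange points VEZF1-2A, symbols mark the replicate, and black lines the group means. SLC25A13 lies highest (16.1 to 19.4) and OTC lowest (0.178 to 0.452), and replicate 2 of VEZF1-2A lies apart for ARG1 (3.90).

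To compare genes with each other, levels were divided by the summed exon length in the table, as CPM per kilobase. That length joins all exons listed for a gene (11018 bases for CPS1, 6031 for ASL) and may exceed that of the RNA made. The order of the genes and the ratios between them depend on it, and other lengths were not tried. The mean over the 6 libraries was 17.4 for SLC25A13, 11.4 for ARG2, 5.61 for ASS1, 3.78 for SLC25A15, 3.54 for ASL, 1.62 for ARG1, 1.47 for GLS2, 1.42 for CPS1, 0.655 for NAGS and 0.297 for OTC. For comparison, ALB had 820 to 1070 CPM per kilobase. Among all genes tested, the mean of SLC25A13 was above that of 86.9%, that of CPS1 above 39.1% and that of OTC above 13.0%. The ranges over the 6 libraries did not touch between SLC25A13 and ARG2, between ARG2 and ASS1, between ASS1 and SLC25A15, or between CPS1 and NAGS. They overlapped between the other neighbours in this order, so SLC25A15 and ASL, ASL and ARG1, ARG1 and GLS2, and GLS2 and CPS1 were not separated beyond their spread. For ASL and ARG1 this came from replicate 2 of VEZF1-2A alone: ASL was above ARG1 in 5 of 6 libraries, and in those 5 the highest ARG1 value was 1.58 and the lowest ASL value 3.20. NAGS was above OTC in 6 of 6 libraries although the ranges touched.

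The place of 4 members in that order is uncertain for a further reason. Their exons share positions with other counted genes, and the strand setting is not given in the sources used here. Reads on shared positions had been counted for each gene. Of 377 genes lying wholly inside the exons of 1 gene on the opposite strand, 355 held counts (94.2%), and of 441 lying inside 1 gene on the same strand, 414 did (93.9%). VTI1B covers 39.6% of the exon positions of ARG2 on the opposite strand and had 3270 to 6029 counts. Spread evenly over its exons, VTI1B alone would give 65.2% to 69.0% of the ARG2 count. Reads need not be spread evenly, since the genes that lie inside another had a median of 0.458 times the read density of that gene on the opposite strand and 0.222 times on the same strand, so these shares may be too high. SPRYD4 covers 77.1% of GLS2, also on the opposite strand, and by the same arithmetic would give 43.3% to 54.4% of its count. ASL shares 563 of the 922 bases of AC068533.4 (57.1% to 69.7%), on the same strand, so reads there may come from either gene. All 96 bases of MIR621 lie inside SLC25A15 on the same strand. Its counts, 5.34% to 9.56% of those of SLC25A15, may therefore be reads of SLC25A15 itself. CPS1, NAGS, OTC, ASS1, ARG1 and SLC25A13 share no exon position with another counted gene.

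The promoters of the members differed in GC content, and they are shown for the pair of arginases and for the members at both ends of the order. All 10 genes matched RefSeq promoters (GRCh38.p14, 250 bases before and 50 from the start site on), CPS1 with 3 start sites and ASS1 with 2. Promoters are written 5′ to 3′, with capitals for TATAAA or CCAAT on either strand. They are those of ARG1 (chr6:131572976-131573275, plus strand), OTC (chrX:38352354-38352653, plus strand), ARG2 (chr14:67619670-67619969, plus strand) and SLC25A13 (chr7:96322049-96322348, minus strand).
ARG1: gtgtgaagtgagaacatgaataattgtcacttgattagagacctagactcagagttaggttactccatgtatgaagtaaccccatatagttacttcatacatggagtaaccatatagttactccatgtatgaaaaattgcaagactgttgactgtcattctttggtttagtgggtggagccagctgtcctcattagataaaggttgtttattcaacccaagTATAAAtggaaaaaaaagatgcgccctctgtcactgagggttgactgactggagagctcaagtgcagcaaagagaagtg
OTC: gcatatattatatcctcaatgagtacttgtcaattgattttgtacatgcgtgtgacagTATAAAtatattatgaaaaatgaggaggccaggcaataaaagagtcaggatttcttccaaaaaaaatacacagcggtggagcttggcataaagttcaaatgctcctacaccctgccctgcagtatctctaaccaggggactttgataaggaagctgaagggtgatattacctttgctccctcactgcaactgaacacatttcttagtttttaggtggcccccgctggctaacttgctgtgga
ARG2: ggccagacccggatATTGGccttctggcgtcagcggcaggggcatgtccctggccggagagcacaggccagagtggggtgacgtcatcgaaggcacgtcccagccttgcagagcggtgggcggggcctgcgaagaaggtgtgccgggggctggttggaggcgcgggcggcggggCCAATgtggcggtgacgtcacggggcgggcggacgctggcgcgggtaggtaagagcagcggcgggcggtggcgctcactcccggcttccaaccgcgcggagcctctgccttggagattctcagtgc
SLC25A13: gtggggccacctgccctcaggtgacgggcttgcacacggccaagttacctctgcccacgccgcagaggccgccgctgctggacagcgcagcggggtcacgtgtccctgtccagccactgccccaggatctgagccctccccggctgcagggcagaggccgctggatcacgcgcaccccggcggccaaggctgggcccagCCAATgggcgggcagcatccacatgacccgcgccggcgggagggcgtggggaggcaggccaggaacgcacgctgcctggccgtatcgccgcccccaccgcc

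The promoters of CPS1, OTC and ARG1 were poor in GC, while those of the other 7 genes were rich in GC. GC content was 40% in ARG1, 41.7% in OTC and 36.7%, 40.3% and 45.3% at the 3 start sites of CPS1, below the median of 58.7% over 35116 promoters. It was 64.3% in NAGS, 67.3% in GLS2 and from 71.0% to 80% in ARG2, ASS1, SLC25A13, ASL and SLC25A15. The observed over expected ratio of CpG was 0.09 in ARG1, 0.23 in OTC and 0.08 to 0.30 in CPS1, against 0.86 in ARG2 and 0.66 in SLC25A13 (median of all promoters 0.58). NAGS and GLS2, although rich in GC, lay between at 0.50 and 0.48, below that median. The 3 genes with GC-poor promoters were all among the 5 lowest in CPM per kilobase, as were NAGS and GLS2 with GC-rich promoters. The 5 highest all had promoters of at least 71.0% GC. Of the 5 highest, ARG2 and ASL may owe a large part of their counts to overlapping genes, so this split by level is uncertain. TATAAA, the core of the TATA box, was found in ARG1 at position −29 from the start site and in OTC at −192 (11.5% of all promoters hold it on either strand). CCAAT was found in ARG2, ASL, SLC25A13 and 1 start site of CPS1 (34.6% of all promoters). VEZF1 is known to bind runs of G, and GGGGGGG was searched on both strands; it was found in 0 of the 13 promoters of the members and in 5.1% of all promoters.

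**Figure D2:**
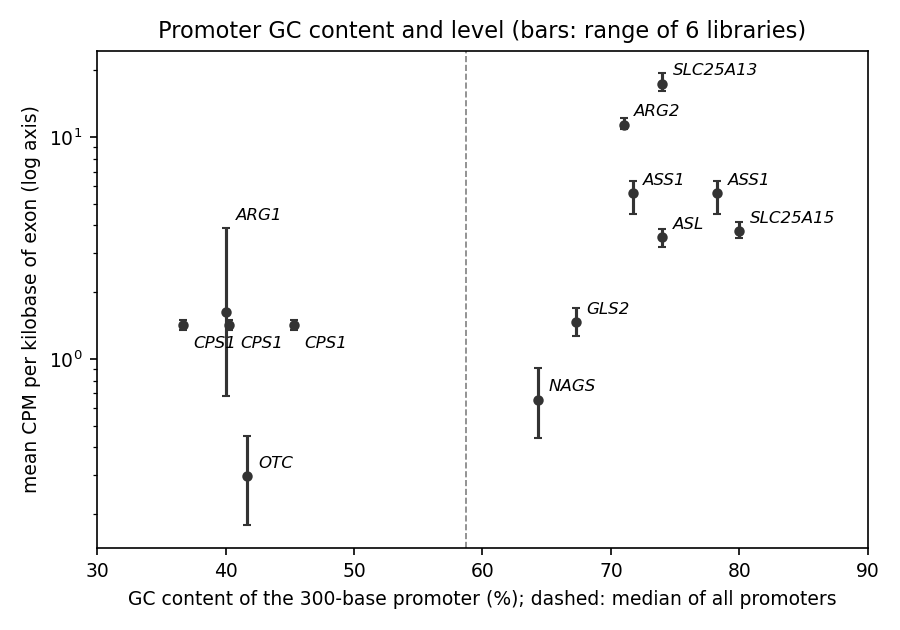
GC content of each RefSeq promoter of the members (horizontal axis, %) against the gene's mean level in CPM per kilobase of exon (log axis); bars span the 6 libraries, the dashed line is the median GC content of all promoters, and genes with several start sites appear once for each. CPS1, OTC and ARG1 lie left of the dashed line and the other 7 genes right of it. The levels of ARG2, ASL, GLS2 and SLC25A15 may include reads of overlapping genes.

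In the mitochondrial steps, CPS1 was the steadiest of the 10 genes and OTC was close to the limit of detection. CPS1 (chromosome 2 of GRCh38, 210477682 to 210679107) had 15.2, 14.8 and 15.7 CPM in VEZF1-WT replicates 1, 2 and 3, against 16.5, 16.0 and 15.9 in the VEZF1-2A replicates. All 3 VEZF1-WT libraries thus lay below all 3 VEZF1-2A libraries, by a small margin. The log2 fold change was −0.08 (standard error 0.08, 95% interval −0.25 to 0.08), with an unadjusted p-value of 0.300 in the fit across all genes, and the exact permutation test gave p = 0.1, the smallest that 3 libraries against 3 allow. The pooled SD within groups was 0.033 on the log2 scale, smaller than in all but 2.08% of genes tested.

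NAGS, the source of the activator of CPS1, was low and varied more. NAGS (chromosome 17, 44004622 to 44009068) had 1.5, 1.97 and 1.38 CPM in VEZF1-WT replicates 1, 2 and 3, against 2.27, 2.50 and 1.21 in the VEZF1-2A replicates, on 40 to 100 counts per library. Replicate 3 of VEZF1-2A was the lowest of all 6 and the other VEZF1-2A libraries were the highest, so the groups overlapped. The log2 fold change was −0.32 (95% interval −0.92 to 0.29). Without replicate 3 of VEZF1-2A it was −0.58 with an unadjusted p-value of 0.0239, and without replicate 2 of VEZF1-2A −0.11. Per kilobase, CPS1 was 1.60 to 3.29 times NAGS.

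OTC (chromosome X, 38352586 to 38421446) was counted 36, 16 and 32 times in VEZF1-WT replicates 1, 2 and 3, against 18, 12 and 10 times in the VEZF1-2A replicates. This is 0.761, 0.449 and 0.568 CPM with VEZF1-WT, against 0.618, 0.300 and 0.302 with VEZF1-2A, with overlapping groups. The 95% counting interval, with read pairs as the unit (exact Poisson), was 0.451 to 1.20 CPM in replicate 1 of VEZF1-WT and 0.0979 to 0.704 in replicate 3 of VEZF1-2A. The log2 fold change was 0.58 with a 95% interval from −0.28 to 1.45, so a fold change between 0.821 and 2.74 is left within the interval. Without replicate 1 of VEZF1-2A it was 0.98 (unadjusted p-value of 0.0440), and without replicate 1 of VEZF1-WT 0.36. CPS1 was 3.06 to 8.16 times OTC per kilobase, although both enzymes act one after the other on the same intermediate.

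Of the carriers of the inner mitochondrial membrane, SLC25A13 had the most counts of the 10 genes (1764 to 4057 per library). SLC25A13 (citrin, on chromosome 7, 96120220 to 96322147), which brings aspartate out of the mitochondrion for ASS1, had 65.7, 59.7 and 72.0 CPM with VEZF1-WT, against 60.5, 60.6 and 69.0 with VEZF1-2A. Its log2 fold change was 0.06 (95% interval −0.13 to 0.24). Its paralog SLC25A12 (aralar), the main form in brain and muscle, averaged 11.7 ± 1.59 CPM (SD, n = 3) with VEZF1-WT and 11.8 ± 1.25 with VEZF1-2A, and per kilobase SLC25A13 was 7.48 to 11.9 times higher in every library. SLC25A15, the ornithine carrier (chromosome 13, 40789412 to 40812460), had 15.8, 14.7 and 17.3 CPM with VEZF1-WT, against 16.1, 15.6 and 15.4 with VEZF1-2A, a log2 fold change of 0.03 (95% interval −0.16 to 0.22). Its intronless paralog SLC25A2 had 1 count in 1 library and 0 in the other 5.

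The cytosolic builders of arginine, ASS1 and ASL, were expressed at similar levels in both groups. ASS1 (chromosome 9, 130444961 to 130501274) had 17.2, 15.4 and 17.5 CPM with VEZF1-WT, against 13.7, 18.7 and 19.1 with VEZF1-2A. The VEZF1-2A libraries held both the lowest and the highest values. Its log2 fold change was −0.04 (95% interval −0.31 to 0.23). ASL (chromosome 7, 66075800 to 66094697) had 20.1, 22.7 and 19.3 CPM with VEZF1-WT, against 23.3, 23.0 and 19.7 with VEZF1-2A, a log2 fold change of −0.09 (95% interval −0.29 to 0.11). Per kilobase ASS1 was 1.17 to 1.93 times ASL, a ratio that depends on the exon lengths used.

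Of the arginases, ARG2 was even across libraries and ARG1 was the most variable gene of the 10. ARG2, the mitochondrial form that is not restricted to liver (chromosome 14, 67619920 to 67651708), had 25.1, 27.9 and 24.9 CPM with VEZF1-WT, against 26.8, 25.8 and 25.5 with VEZF1-2A. Its log2 fold change was −0.01 (95% interval −0.16 to 0.15). ARG1, the cytosolic liver form (chromosome 6, 131470832 to 131584332 in the table, which begins upstream of the RefSeq start site), had 150, 54 and 148 counts in VEZF1-WT replicates 1, 2 and 3, against 62, 346 and 116 in the VEZF1-2A replicates. In CPM this was 3.17, 1.52 and 2.63 with VEZF1-WT, against 2.13, 8.64 and 3.50 with VEZF1-2A. Replicate 2 of VEZF1-2A stood far above the other 5 libraries, whose values were mixed between the groups. Its 95% counting interval of 7.404 to 10.03 CPM did not touch that of any other library, the nearest being 2.66 to 4.52 in replicate 3 of VEZF1-2A.

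The log2 fold change of ARG1 was −0.97 (standard error 0.43, 95% interval −1.93 to −0.01), with an unadjusted p-value of 0.0477 and, over all genes, an adjusted p-value of 0.9996 (edgeR's quasi-likelihood test). The exact permutation test gave p = 0.4. Without replicate 2 of VEZF1-2A it was −0.20, with an unadjusted p-value of 0.554, so the difference rested on that library. When genes with few counts were not filtered out, ARG1 had an adjusted p-value of 9.34e-05 (edgeR's quasi-likelihood test) at a log2 fold change of −0.96, and this was the one setting in which any member was called. That fit used the same ARG1 counts, with replicate 2 of VEZF1-2A among them, so it does not show a difference beyond that library. Because of this library the ratio of ARG2 to ARG1 per kilobase was 2.90 in replicate 2 of VEZF1-2A and 7.09 to 17.9 in the others. As part of the ARG2 count may come from VTI1B, these ratios may be too high.

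**Figure D3:**
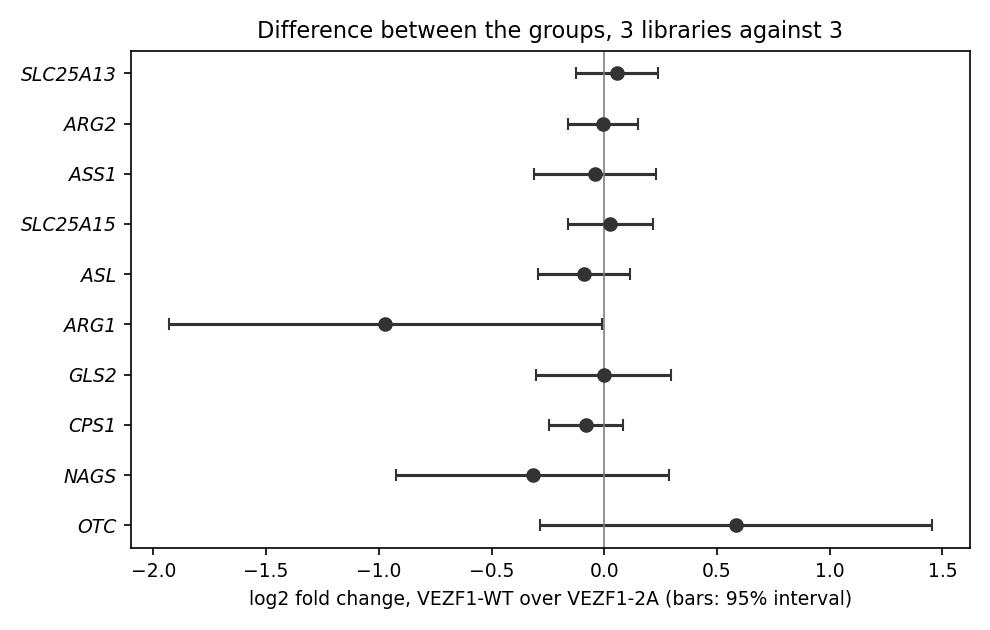
Log2 fold change of each gene, VEZF1-WT over VEZF1-2A (points), with its 95% interval from edgeR's quasi-likelihood fit (bars); genes are ordered by level. All intervals but that of ARG1 (−1.93 to −0.01) hold 0, and those of NAGS and OTC are wide.

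Few other genes stood as far above the other libraries as ARG1 did in replicate 2 of VEZF1-2A. Among 15222 genes with a mean of at least 1 CPM, 3 were at least 2-fold above every other library there (after adding 0.1 CPM), ARG1 by 2.43, IGFBP1 by 2.01 and ALDH3A1 by 2.00, and in each of the other 5 libraries 0 genes were. IGFBP1, a secreted binder of insulin-like growth factors, had 86.8 CPM in that library and 19.1 to 43.1 in the others. ALDH3A1, an aldehyde dehydrogenase, had 3.15 CPM against 0.497 to 1.52. Of 40 genes of the surrounding pathway at this level, GATM, which moves the amidino group of arginine onto glycine, was 1.86-fold and ASNS, the asparagine synthetase, 1.66-fold above every other library there, the 2 that passed 1.5-fold. These genes were picked once their values had been seen. Of the other members, NAGS also had its highest value there (2.50 CPM, against 1.21 to 2.27) and ASS1 its second highest (18.7 CPM), and CPS1 and ARG2 lay inside their range at 16.0 and 25.8 CPM. OTC was nearly level there and in replicate 3 of VEZF1-2A, its lowest values (0.300 and 0.302 CPM). GLS2 had its lowest value in replicate 2 of VEZF1-2A. Among the hepatocyte markers, ALB, SERPINA1 and HNF4A were highest in that library too, at 3672, 3254 and 157 CPM. The rest of that list, APOA1, APOB, TTR, TF, FGB and AFP, had their highest value in another library. FGB had 435 CPM in replicate 2 of VEZF1-2A and up to 804 elsewhere, and AFP 2065 and up to 3643. What set replicate 2 of VEZF1-2A apart for ARG1 was not tested.

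**Figure D4:**
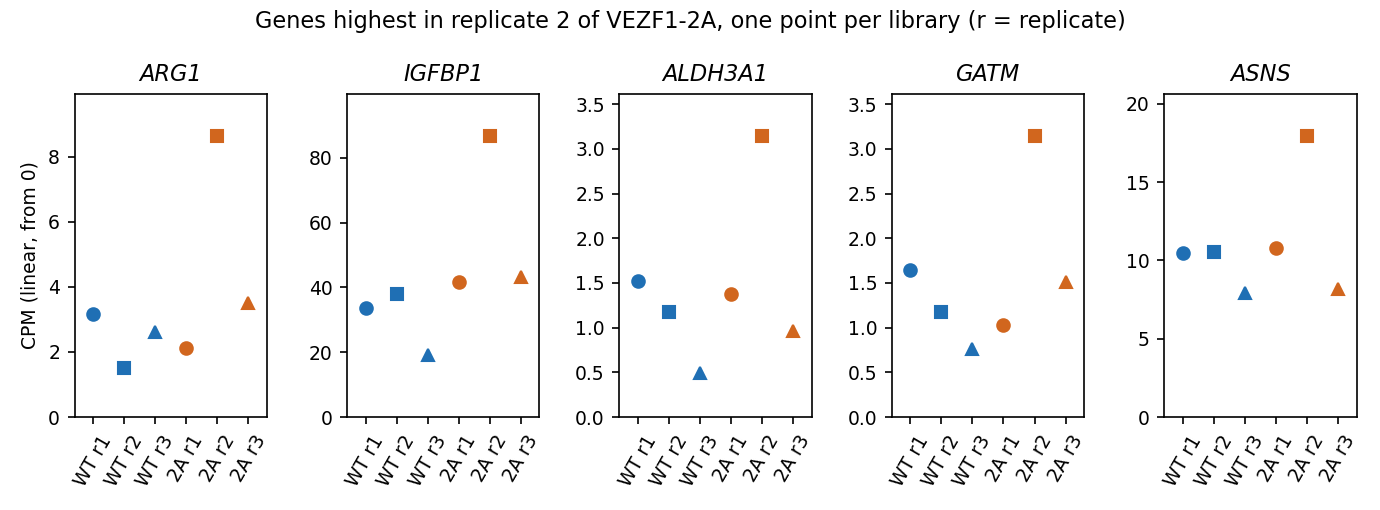
CPM in each library (linear axes from 0) of ARG1 and of 4 genes that were also highest in replicate 2 of VEZF1-2A; blue is VEZF1-WT, orange VEZF1-2A, and r is the replicate number. ARG1 reached 8.64 CPM in that library against 1.52 to 3.50 in the other 5.

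GLS2, the glutaminase of periportal hepatocytes, was low beside GLUL. GLS2 (chromosome 12, 56470944 to 56488414) had 5.49, 6.01 and 6.65 CPM with VEZF1-WT, against 7, 5.27 and 6.003 with VEZF1-2A, with a log2 fold change of 0.00 (95% interval −0.30 to 0.30). GLUL, which fixes ammonia into glutamine, had 144 ± 11.2 CPM (SD, n = 3) with VEZF1-WT and 135 ± 9.204 with VEZF1-2A, and was 5.83 to 8.79 times GLS2 per kilobase. GLUD1, which releases ammonia from glutamate, had 163 ± 20.6 and 161 ± 19.7 CPM in the same order. The log2 fold changes of GLUL and GLUD1 were 0.09 and 0.02, both with 95% intervals that held 0. CAD, the cytosolic counterpart of CPS1 that starts pyrimidine synthesis, averaged 19.8 ± 2.78 CPM (SD, n = 3) with VEZF1-WT and 19.8 ± 0.964 with VEZF1-2A. Per kilobase CAD was 1.43 to 1.95 times CPS1. That ratio rests on the exon length of 11018 bases for CPS1, and a shorter one would lower it.

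The surrounding pathway was read from a list of 52 genes for glutamine and glutamate, bicarbonate, ornithine, arginine and proline, carriers and channels, aspartate and fumarate, other users of amide nitrogen, and the deacylases SIRT3 and SIRT5. Of these, 45 had enough counts to be tested, 24 with a positive and 21 with a negative log2 fold change (median 0.00), and 0 had an adjusted p-value under 0.05. At an unadjusted p-value under 0.05 there was 1 of 45, against 2.13% of all genes tested, so again near that share. It was SLC7A7, a carrier that exports arginine and other cationic amino acids, with 0.630 ± 0.0558 CPM (SD, n = 3) in VEZF1-WT and 0.350 ± 0.0895 in VEZF1-2A. The log2 fold change of SLC7A7 was 0.86 (95% interval 0.11 to 1.60) on 10 to 32 counts per library, with an unadjusted p-value of 0.0285 and, over all genes, an adjusted p-value of 0.9996 (edgeR's quasi-likelihood test). The groups did not overlap for 3 of the 45, against 7.36% of all genes tested, which is near the same share, and these were SLC7A7, the arginine importer SLC7A1 (log2 fold change −0.14) and AZIN1 (0.05), an inhibitor of antizyme. The 7 genes with too few counts to be tested included the urea transporters SLC14A1 and SLC14A2, the urea and glycerol channel AQP9 and the ammonia channel RHCG, each with at most 5 counts in a library, and SLC25A2, NOS1 and NOS2. RHBG, the other ammonia channel, was expressed at 5.90 ± 0.363 CPM (SD, n = 3) in VEZF1-WT and 5.56 ± 1.07 in VEZF1-2A, and CA5A, the mitochondrial carbonic anhydrase that supplies bicarbonate to CPS1, at 4.01 ± 1.06 and 3.80 ± 0.927.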

How the data were processed

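RNA-seq of 6 HepG2 libraries was used, grouped by the sample titles. The authors deposited 1 table of read counts per gene, as whole numbers without normalization, on GRCh38 (named in the submitters' processing notes); the aligner, counter, annotation release and strand setting are not given in the sources used here. Of its lines, 5 (a broken entry) were left out. Total counts per library, 28756765 to 57199396, set the precision; counting intervals cover counting error only.

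Counts were fitted in R 4.3.3 with edgeR 4.0.16 (filterByExpr, minimum count 10 and minimum total 15; TMM; glmQLFit and glmQLFTest, prior count 0.125; group alone), two-sided, over 19111 genes. Standard errors and 95% intervals come from that fit. Single genes were also compared by exact permutation of log2(CPM + 0.1). DESeq2 1.42.0 and limma 3.58.1 were alternatives. Scripts were tested on simulated data. Replicates of a group differed by more than counting noise (6.86 to 26.97 in chi-square over its degrees of freedom). Levels between genes were compared as CPM per kilobase of the table's exon length. Figures were drawn with matplotlib 3.10.9.

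The genes, the pathway list and the motifs were chosen with earlier results of these data known. The genes named are the 10 members, the paralogs SLC25A12, SLC25A2 and CAD, GLUL, GLUD1, genes of the pathway list at an unadjusted p-value under 0.05, VEZF1, genes that overlap a member and the 3 genes most like the member with the highest CPM per kilobase; the others were chosen after their values were seen. An item that the rule also names is not reported here.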

Additional observations from a re-analysis of the deposited data

How the results depend on the processing

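The median log2 fold change of the members stayed between −0.06 and −0.01 in all settings tried, and CPS1, NAGS, OTC, ASL and ARG1 kept their sign in all settings that gave them a value. With no filter on low counts, 16 genes and 1 member (ARG1) were called, and 3 genes of the pathway list had an unadjusted p-value under 0.05. Over all genes, DESeq2's test called 3. The number of members with an unadjusted p-value under 0.05 was 0 with DESeq2's test, limma voom and overlapping genes left out, against 1, and 0 to 2 with single libraries left out. It was 0 without replicate 2 or 3 of VEZF1-WT or replicate 2 of VEZF1-2A, and 2 without replicate 1 or replicate 3 of VEZF1-2A, when OTC and NAGS joined ARG1. For the pathway list it was 0 with DESeq2's test, and 0 to 4 with single libraries left out (0 without replicate 1 or 2 of VEZF1-WT or replicate 2 of VEZF1-2A, 3 without replicate 3 of either group, 4 without replicate 1 of VEZF1-2A), against 1. With the replicate number as a block, 6 genes were called and 4 of the pathway list had an unadjusted p-value under 0.05; the block changed no call of a member. Libraries with the same number deviated together with r of 0.08, 0.15 and 0.38, and replicate 2 of VEZF1-WT correlated better with replicate 1 of VEZF1-2A (0.18), so the numbers are not taken as pairs.

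Genes near 0 changed sign. GLS2 had 0.012 with no filter, 0.019 with voom, 0.002 with counts halved and −0.10 to 0.11 with single libraries left out. ARG2 had 0.008 with no filter and −0.058 to 0.024 with single libraries left out. With single libraries left out, ASS1 had −0.178 to 0.037, SLC25A13 −0.015 to 0.12 and SLC25A15 −0.039 to 0.081. The cause of these shifts was not tested. In CPM per kilobase, 7 members in place of 9 reached 1 in every library. Depth limits OTC (10 to 36 counts) and NAGS (40 to 100).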

Other observations

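Within the urea cycle genes, several members split the libraries into the same sets across the groups, though not all in the same direction. SLC25A13 was at 65.7 to 72.0 CPM in replicates 1 and 3 of VEZF1-WT and replicate 3 of VEZF1-2A, and at 59.7 to 60.6 CPM in replicate 2 of VEZF1-WT and replicates 1 and 2 of VEZF1-2A. ASL went the other way, at 19.3 to 20.1 CPM in the first set of libraries and 22.7 to 23.3 CPM in the second. NAGS (1.21 to 1.5 CPM against 1.97 to 2.50) and ARG2 (24.9 to 25.5 CPM against 25.8 to 27.9) followed ASL. The values of CPS1, OTC, ASS1, ARG1, SLC25A15 and GLS2 overlapped between these sets. These sets were noticed in the values, hold libraries of both groups and are no groups of the study, so no test was made. How many of all genes tested split the libraries in this way was not counted. The split is therefore not shown to be particular to these members.

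The 3 genes whose log2(CPM + 0.1) followed SLC25A13 most closely over the 6 libraries were SLC6A12, CDK2AP1 and AL162311.3, with Pearson's r of 0.998, 0.995 and 0.994, as a description over points that share their depth and library. They had 4.38 to 7.54, 35.6 to 44.6 and 45.7 to 55.4 CPM.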
